A study of Mus musculus with 2 samples.

Results

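Matrix metalloproteinases are zinc-dependent enzymes that cut collagens, proteoglycans and other proteins outside the cell. Most are secreted as inactive proenzymes, which other proteases activate, and tissue inhibitors of metalloproteinases (the Timp proteins) block the active forms. In cartilage they take part in the normal replacement of matrix during growth and in the loss of matrix in arthritis. The 10 genes described here are Mmp2, Mmp3, Mmp9, Mmp10, Mmp11, Mmp13, Mmp14, Mmp16, Mmp19 and Mmp23, taken by exact gene symbol in the platform's annotation. They were read by 19 of the 45101 probe sets on the array, and 18193 genes with a single symbol were read in all.

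The cells were primary superficial zone cells, which line the surface of articular cartilage, from femoral and tibial joints of ICR mice aged 4 postnatal days. Both groups were kept in DMEM with 10% serum. The control group was 1 culture without retinoic acid. The treated group was 1 culture exposed to 10 μM retinoic acid, the hormone-like derivative of vitamin A that acts through nuclear receptors, for 24 h. Each culture was read on 1 Affymetrix Mouse Genome 430 2.0 array, so there is no replicate, no test and no p-value, and every ratio below describes 2 arrays. The labels give no number of animals, no vehicle for the control, and no statement on whether both cultures came from the same cells.

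Values are MAS5 signals on a linear scale. A floor was set at the median signal of each array, 26.5 for control and 29.7 for retinoic acid. Genes that passed it on each array have a fold, and those that passed it on 1 array have a bound, written "at least". A gene above neither was counted as not measured, which does not mean absent. Signals of different genes come from different probes and give no order of levels between genes. Where the signals of several marker genes are summed, the brightest probe sets weigh most. With so few arrays, all values have limited precision. The only repeat measurement was between probe sets of the same gene, whose log2 ratios had a pooled SD of 0.30 over 4993 genes. That SD does not include variation between cultures. Because the RNA came from whole cultures, a change in the number of cells of a type and a change in RNA per cell cannot be told apart. Trimmed mean signals were 183 and 193 on the control and retinoic acid arrays. Of the cell type markers, 8 of 8 for chondrocytes and 5 of 5 for the superficial zone were above the floor on both arrays. So were 6 of 6 fibroblast markers, and 10722 of all 18193 genes. Passing the floor therefore does not tell these cell types apart.

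Of the 10 genes, 3 (Mmp13, Mmp3 and Mmp10) lie in a group of Mmp genes on chromosome 9, with other Mmp genes between them. Their upstream sequences are shown first because they share letters with most of that group and not with Mmp11 and Mmp14. RefSeq's promoter table (build GRCm38.p6) held 6 of the 10 genes (Mmp3, Mmp10, Mmp11, Mmp13, Mmp14 and Mmp23). Each sequence is the 120 bases just before the annotated gene start, 5′ to 3′ on the gene's strand. Capitals mark the AP-1 motif TGAGTCA or its reverse complement TGACTCA, the TATA motif TATAAA, and the GC box GGGCGG. The positions are chr9:7272394-7272513 (plus strand) for Mmp13, chr9:7445702-7445821 (plus) for Mmp3, chr9:7502222-7502341 (plus) for Mmp10, chr14:54431478-54431597 (plus) for Mmp14 and chr10:75932503-75932622 (minus) for Mmp11.
Mmp13: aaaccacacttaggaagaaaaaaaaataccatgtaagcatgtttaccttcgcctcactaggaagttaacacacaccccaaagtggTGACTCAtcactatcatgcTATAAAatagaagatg
Mmp3: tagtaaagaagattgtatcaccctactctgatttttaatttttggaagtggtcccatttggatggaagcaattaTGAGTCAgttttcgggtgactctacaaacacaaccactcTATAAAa
Mmp10: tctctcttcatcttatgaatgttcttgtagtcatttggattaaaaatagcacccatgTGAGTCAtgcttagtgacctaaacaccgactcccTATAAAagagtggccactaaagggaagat
Mmp14: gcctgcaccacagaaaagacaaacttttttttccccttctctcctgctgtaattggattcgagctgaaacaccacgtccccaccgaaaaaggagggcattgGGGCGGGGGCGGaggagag
Mmp11: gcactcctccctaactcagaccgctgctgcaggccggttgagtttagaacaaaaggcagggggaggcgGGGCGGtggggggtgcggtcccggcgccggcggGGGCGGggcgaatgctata

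Over the whole 250 bases upstream, searched on both strands, the AP-1 letters began 35 bases before the annotated start in Mmp13, 46 in Mmp3 and 63 in Mmp10. In each of these genes the TATA letters lay nearer the start, at 16, 7 and 29 bases. The trait is not particular to these 3 or to genes with a measured signal. Of the 10 Mmp genes of the chromosome 9 group, 7 had the AP-1 letters, also Mmp12, Mmp1b, Mmp1a and Mmp7, and 6 had both AP-1 and TATA letters, also Mmp1b, Mmp1a and Mmp7. Those 4 other genes did not pass the floor on both arrays. AP-1 letters were found in 3 of the 6 member genes and in 4.46% of 32851 upstream windows of all genes. TATA letters were found in 3 of 6 against 12.4% of windows, and the GC box in 2 of 6 (Mmp11 and Mmp14) against 32.7%. The Runx motif AACCACA occurred only in Mmp13 among the 6, 119 bases upstream, and in 4.40% of windows. In the chromosome 9 group it was in 3 of 10 genes, also Mmp27 and Mmp7. The Ets motif AGGAAG was in Mmp13, Mmp3 and Mmp14 of the 6, in 6 of 10 genes of the group, and in 29.5% of windows. A retinoid receptor half-site, AGGTCA, was among the 6 in Mmp10 alone, 49 bases upstream on the reverse strand, and in 14.0% of windows. In the chromosome 9 group it was in 4 of 10 genes, also Mmp12, Mmp1b and Mmp1a. Mmp23 has 2 annotated starts, and neither window held any of the 6 motifs. The motifs did not overlap each other in these windows. A match of letters is a description and not evidence that a factor binds.

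**Figure D1:**
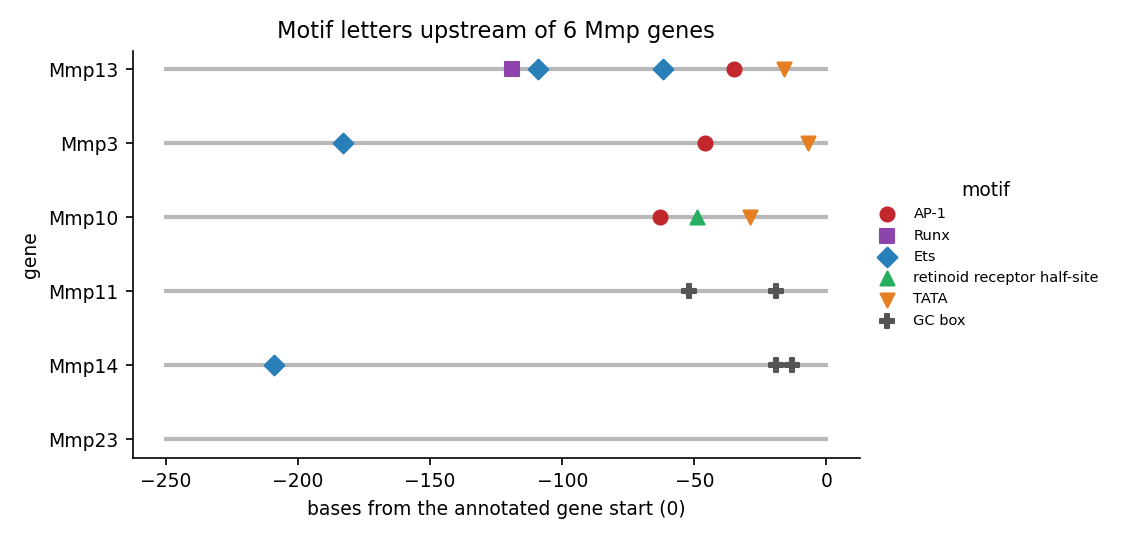
Positions of 6 motifs upstream of 6 Mmp genes, in bases from the annotated gene start (0, right end); each grey line is a gene's 250-base window and each marker is the first letter of a match on either strand, with the 2 windows of Mmp23 drawn on 1 line. Mmp13, Mmp3 and Mmp10 each have an AP-1 match with a TATA match nearer the start, and Mmp23 has no match.

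The comparison of the cultures asks which metalloproteinase genes differ after a day with retinoic acid. Of the 10 genes, 9 were measured, and with retinoic acid 5 of them were higher by 2-fold or more: Mmp3, Mmp9, Mmp11, Mmp13 and Mmp14. That is 55.6% of the measured members, beside 6.54% of all 11884 measured genes. None of the 9 was at least 2-fold lower, beside 4.34% of all measured genes. Mmp3, Mmp9 and Mmp11 were at least 4-fold higher, 3 of 9, beside 1.79% of all measured genes. That count depends on the processing: with the floor at the 70th percentile of signal, Mmp9 (log2 ratio 0.17) and Mmp11 (1.94) fell below 4-fold. Mmp9 also did with the median signal added as an offset (1.84) and with the median over probe sets (1.64). The other 4 of the 9 measured, Mmp2, Mmp16, Mmp19 and Mmp23, stayed within 2-fold. The median log2 ratio of the 9 was 1.18, beside 0.011 over all measured genes with a fold or bound, and was 0.84 with the floor at the 30th or 70th percentile of signal or with none. The genes were listed with earlier results of these arrays known, so these counts are a description.

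**Figure D2:**
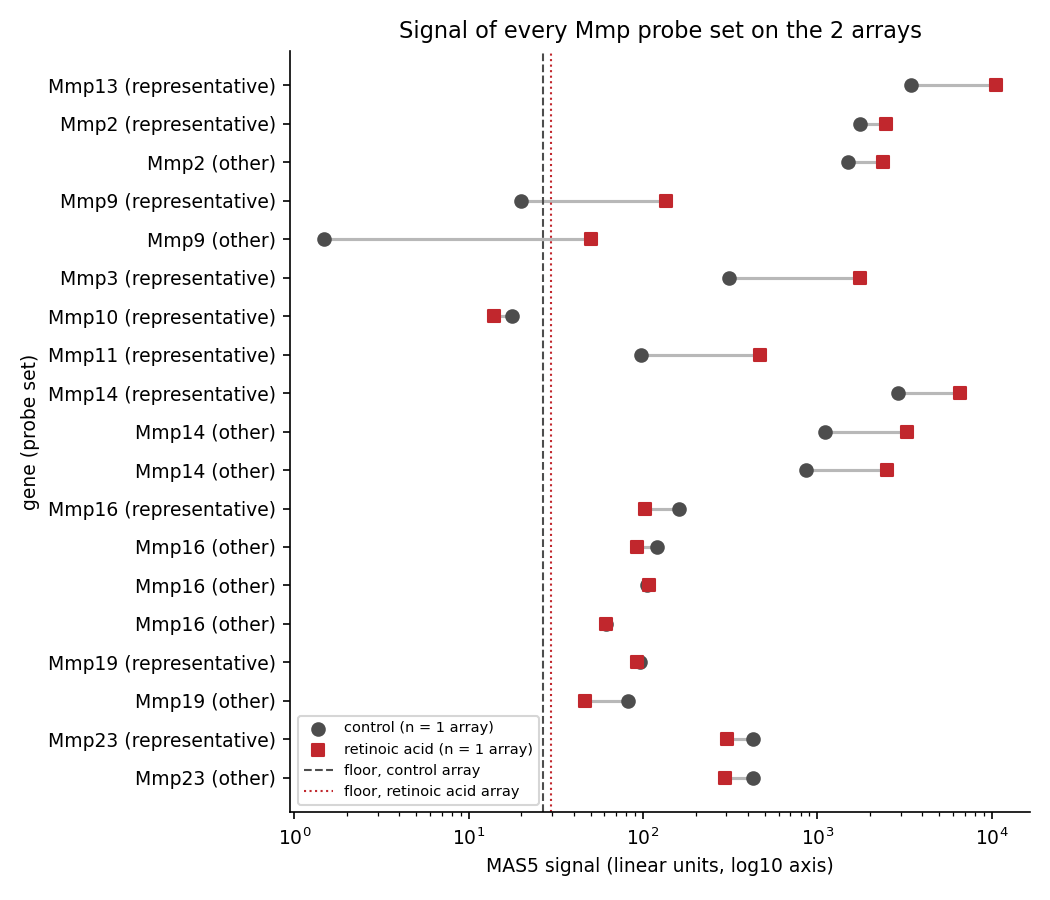
MAS5 signal (linear units on a log10 axis) of each of the 19 Mmp probe sets on the control array (circles) and the retinoic acid array (squares), n = 1 each, with each array's floor as a vertical line. All probe sets of Mmp13, Mmp2, Mmp9, Mmp3, Mmp11 and Mmp14 are higher on the retinoic acid array, and both Mmp10 values lie left of the floors.

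Collagenases cut the triple helix of fibrillar collagens, and Mmp13 is the main enzyme of this kind in mouse cartilage, acting above all on type II collagen. Mmp13 had a signal of 3446 in control and 10597 with retinoic acid, a 3.07-fold difference (log2 ratio 1.62) from its single probe set. It held rank 251 from the highest among the 10722 genes above the floor on both arrays. On the retinoic acid array 65 genes, Mmp13 among them, had signals above 8000, and the highest signal was 13926. Whether folds of genes this bright, also Col2a1, Fn1 and Nid1 below, are compressed was not tested. The collagenase genes Mmp1a, Mmp1b and Mmp8 were below the floor on both arrays.

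Stromelysins cut proteoglycans, fibronectin and several collagens, and Mmp3 also activates other proenzymes. Mmp3 went from 310.1 in control to 1745 with retinoic acid, which was 5.63-fold higher (log2 ratio 2.49). It had the largest fold of the members above the floor on both arrays, at rank 76 of 10722. Mmp10, which encodes the related stromelysin 2, had signals of 17.6 and 14.0, both below the floor, so no fold is given. Mmp3 was well above the floor in both cultures and Mmp10 in neither, and both genes have the AP-1 and TATA letters shown above.

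Mmp11, called stromelysin 3 although it differs in substrate, is switched on inside the cell by the protease furin and leaves the cell in active form. Its signal was 97.4 in control and 467 with retinoic acid, a 4.80-fold difference (log2 ratio 2.26) at rank 101 of 10722. Mmp11 has 1 probe set, so this value has no second reading.

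Gelatinases cut denatured collagen and type IV collagen of basement membranes. For Mmp9, gelatinase B, the brighter probe set read 20.0 in control, below the floor, and 136 with retinoic acid, so it was at least 5.15-fold higher (log2 ratio 2.36). The second Mmp9 probe set read 1.48 and 50.0, which gives a bound of at least 1.89-fold. Both probe sets crossed the floor in the same direction, but the size rests on a dim signal: with the floor at the 70th percentile the log2 bound was 0.17 and no longer past 2-fold.
Mmp2, gelatinase A, was read by 2 bright probe sets. They gave 1755 and 2481 (1.41-fold higher) and 1504 and 2368 (1.57-fold higher). Mmp2 was thus higher with retinoic acid in both readings and within 2-fold in both, at rank 1768 of 10722.

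Mmp9 is abundant in osteoclasts and macrophages, so the markers of these cells are given beside it. Of 8 osteoclast markers, 6 were below the floor on both arrays, among them Calcr, Dcstamp and Ocstamp. Acp5, which encodes the tartrate-resistant acid phosphatase of osteoclasts, was 6.45-fold higher (69.5 to 448), and Ctsk, cathepsin K, was 1.20-fold higher (831 to 996). The summed signal of the osteoclast list was 956 in control and 1508 with retinoic acid. Of 10 macrophage markers on the array, 5 were above the floor in control and 6 with retinoic acid, with sums of 567 and 728. Ptprc, the pan-leukocyte gene, Itgam, Fcgr1 and Tyrobp were below the floor on both arrays, and Mrc1 was at least 3.45-fold higher (19.9 to 91.5). The markers above the floor on both arrays stayed within 2-fold. They were Lyz2 (336 to 354), Csf1r (60.3 to 53.7), Cd68 (34.9 to 43.2), Adgre1 (31.9 to 33.8) and Cd14 (56.1 to 102). All 6 neutrophil markers on the array were below the floor on both. The part of these cells in the Mmp9 value was not tested.

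Membrane-type metalloproteinases stay anchored at the cell surface. Mmp14 encodes the best known of them, which cuts fibrillar collagen and, in a complex with Timp2, activates the Mmp2 proenzyme. Its brightest probe set read 2905 in control and 6574 with retinoic acid, which was 2.26-fold higher (log2 ratio 1.18). The others read 1103 and 3249 (2.95-fold) and 863 and 2499 (2.89-fold). All 3 readings were past 2-fold, and the brightest gave the smallest fold.
Mmp16 encodes a second membrane-type enzyme and had 4 probe sets. The brightest read 160.5 in control and 102 with retinoic acid, which was 1.57-fold lower. The next read 119.8 and 92.4 (1.30-fold lower), and the other pairs were 105 and 108, and 61.6 and 61.4. Of the 4 readings 2 were lower by more than the scatter between probe sets and 2 were nearly equal, so Mmp16 has no settled difference. Mmp14 and Mmp16 did not move alike: every Mmp14 reading was past 2-fold and none of Mmp16 was.

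Mmp19 and Mmp23 stand apart from these classes. Mmp19 encodes a secreted enzyme with broad substrates, and its brighter probe set read 96.2 in control and 92.7 with retinoic acid, a 1.04-fold difference. The second read 82.1 and 46.3, which was 1.77-fold lower. The readings of Mmp19 disagreed by more than the scatter between probe sets, and neither was past 2-fold.
Mmp23 encodes an unusual membrane-bound member that lacks the hemopexin domain of most of the family. Its 2 probe sets were nearly identical, with 427 and 302 (1.41-fold lower) and 427 and 297 (1.44-fold lower). Mmp23 was therefore lower in both readings by less than 2-fold.

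**Figure D3:**
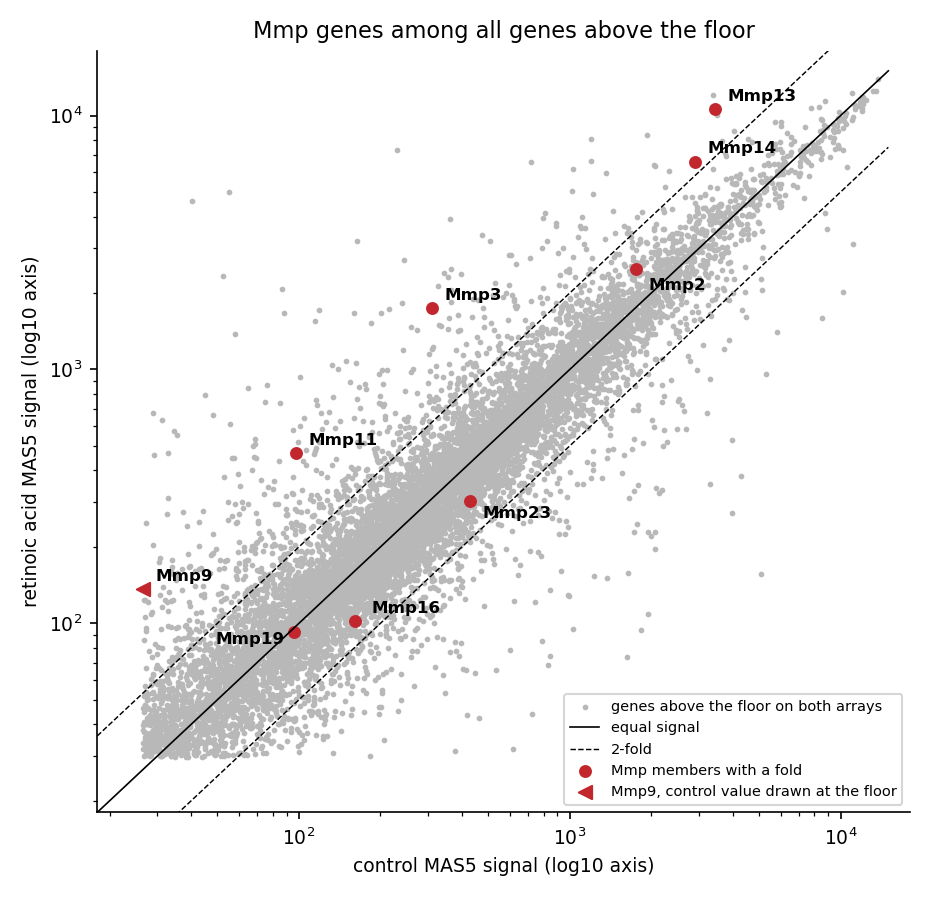
Control signal against retinoic acid signal (MAS5, both axes log10) for the 10722 genes above the floor on both arrays (grey), with the line of equal signal and dashed 2-fold lines; Mmp genes are red, and Mmp9 is drawn at the control floor. Mmp3, Mmp11, Mmp13, Mmp14 and Mmp9 lie above the upper 2-fold line, and Mmp2, Mmp16, Mmp19 and Mmp23 lie between the lines.

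The members vary in how often they were read. With 6 members read by several probe sets and 4 by 1, the folds of Mmp3, Mmp11 and Mmp13 each rest on a single probe set. Across the reported setting and 9 other processing settings, the log2 ratio ran from 2.40 to 2.49 for Mmp3, from 1.57 to 1.62 for Mmp13, from 1.94 to 2.28 for Mmp11 and from 1.09 to 1.53 for Mmp14. These 4 were past 2-fold under all 10 settings. Mmp9 ran from 0.17 to 2.77, the widest range of the members. Mmp2 ran from 0.41 to 0.58, and Mmp23 from −0.55 to −0.45. For Mmp16 the range was −0.72 to −0.19, and for Mmp19, measured under 9 of the 10 settings, −0.44 to −0.0.

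**Figure D4:**
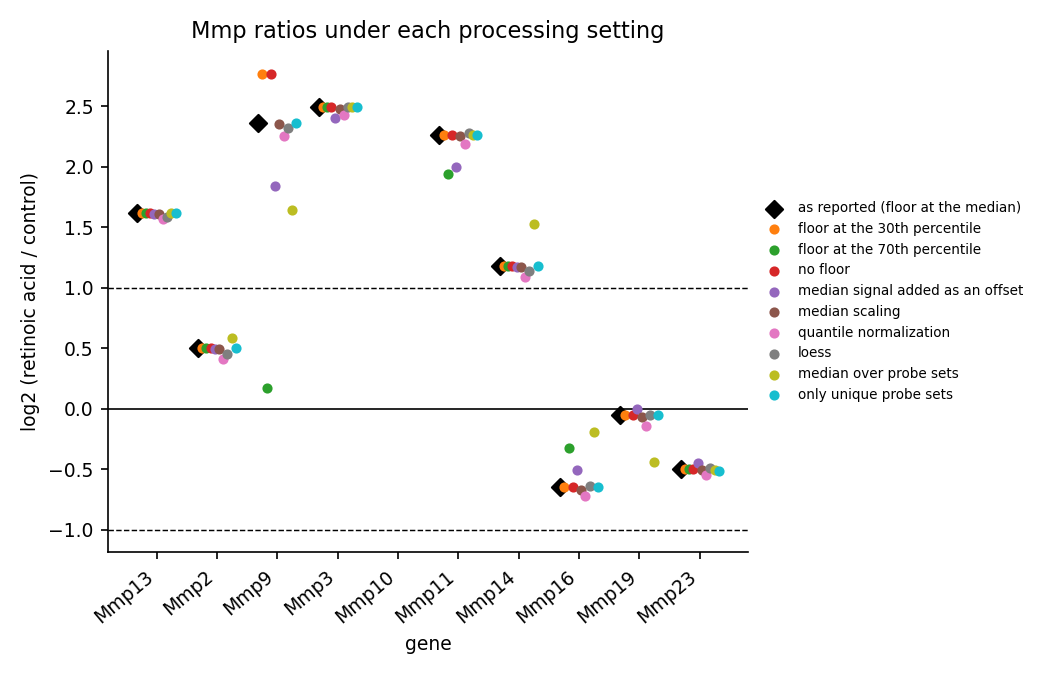
Log2 ratio of retinoic acid over control for each Mmp gene under the reported setting (black diamonds) and 9 alternatives (coloured dots), with lines at 0 and, dashed, at 2-fold; 1 array per group. Mmp3, Mmp11, Mmp13 and Mmp14 stay above the 2-fold line, Mmp9 spreads from 0.17 to 2.77, and Mmp10, below the reported floor, is not drawn.

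The chromosome 9 group holds 10 Mmp genes in the order Mmp13, Mmp12, Mmp1b, Mmp3, Mmp1a, Mmp10, Mmp8, Mmp27, Mmp20 and Mmp7 in RefSeq's gene table, with 0 other protein-coding genes starting between the first and the last. Of 9 on the array (Mmp27 was not analysed here), Mmp13 and Mmp3 alone passed the floor on each array. Mmp12, the macrophage elastase gene, read 9.27 and 41.3, a bound of at least 1.56-fold higher. Mmp7, the matrilysin gene, read 26.6 and 1.74, where the control value barely passed the floor and no fold is given. Mmp20, the enamel protease gene, read 5.36 and 11.9. Mmp1b, which with Mmp12 lies between the 2 genes past 2-fold, read 5.96 and 0.486.
Outside this group, the membrane-type gene Mmp17 read 24.8 and 31.9, a bound of at least 1.20-fold. Mmp24, also membrane-type, read 28.0 and 25.4 and has no fold. Mmp15, Mmp21, Mmp25 and Mmp28 were not analysed here. Of the 8 Mmp genes on the array other than the 10 members, 4 were not measured, 2 have no fold and 2 have a bound. Of the 2 with a bound, Mmp12 and Mmp17, 0 were past 2-fold higher or lower. The shares of all measured genes were 6.54% and 4.34%. None of the 8 genes was above the floor on both arrays. Their values were named after they were seen.

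Inhibitors of the metalloproteinases were read next. Among the 6 measured, 0 were higher and 1 was lower (16.7%) by 2-fold or more, beside 6.54% and 4.34% of all measured genes. With so few genes, 1 gene makes up the whole share. The median log2 ratio was 0.15. The lower gene was Timp3, whose protein binds to the matrix and also blocks aggrecanases. Timp3 went from 8915 to 3579.5 and was 2.49-fold lower, and its 4 probe sets had log2 ratios from −2.04 to −1.32. Timp2, the partner of Mmp14 in activating Mmp2, was 1.06-fold higher (6163 to 6562). Timp1 was 1.25-fold lower (3792 to 3044). Reck, a membrane-anchored inhibitor, was 1.15-fold higher (1712 to 1968), and Timp4 was below the floor on both arrays.

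Proenzymes are activated by furin-like proteases inside the cell and by plasmin and other serine proteases outside it. The list read here joins activators with related genes, such as Plaur and Bsg, so its counts are not of activators alone. Of its 12 measured genes, 2 were higher (16.7%) and 0 lower by 2-fold or more. The shares of all measured genes were 6.54% and 4.34%. The median log2 ratio was 0.34 (0.75 with only unique probe sets, those named as matching 1 transcript). Plat, which encodes the tissue plasminogen activator, was 4.06-fold higher (356 to 1447). Prss35, listed for its place in the serine protease family, was 19.6-fold higher (163 to 3209). Whether it can activate a metalloproteinase was not tested. Furin, the activator of Mmp11, read 384 and 392, a 1.02-fold difference. Plau, urokinase, was at least 1.70-fold higher from below the floor (15.1 to 45.1), and Plg, plasminogen itself, was below the floor on both arrays.

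Cytokines of the interleukin 1 and interleukin 6 families are known inducers of Mmp3 and Mmp13 in chondrocytes. The genes read here were cytokines, receptors and related genes such as Ptgs2. Among the 13 measured, 0 were higher and 3 lower (23.1%) by 2-fold or more, beside 6.54% and 4.34% of all measured genes. The median log2 ratio was −0.07 (−0.66 with no floor). Il1a, Il6, Osm and Tnf were below the floor on both arrays. Il1b (18.1 and 30.2) and Lif (30.6 and 38.6) lay near it, so these counts say little about the cytokines themselves. Il1r1, the signalling receptor of interleukin 1, was 4.00-fold lower (761 to 190.3), and its partner Il1rap was 2.43-fold lower (247 to 102). Ptgs2, which encodes the inducible cyclooxygenase, was 2.42-fold lower (359 to 148). All probe sets of Il1rap and Ptgs2 above the floor were lower. The dimmest of these for Il1rap (log2 ratio −0.64) and the second of Ptgs2 (−0.56) were within 2-fold. The count lower was 2 with the median over probe sets or the floor at the 70th percentile. It was 4 with only unique probe sets.

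AP-1 factors are dimers of Fos and Jun proteins and recognise letters of the kind marked above in Mmp13, Mmp3 and Mmp10. Among 19 measured transcription factor genes, 3 were higher (15.8%) and 0 lower by 2-fold or more, beside 6.54% and 4.34% of all measured genes. The median log2 ratio was 0.08. Fos was 6.56-fold higher (162 to 1062). Jun was 2.19-fold higher (607 to 1328), and its second probe set had a log2 ratio of 0.71. Other Fos and Jun family genes went both ways: Fosl2 was 1.84-fold lower (2876 to 1563) and Jund 1.42-fold lower (1509 to 1061). Fosl1 was 1.31-fold and Junb 1.05-fold higher, and Fosb was below the floor on both arrays. These other genes were named after their values were seen. Etv5, an Ets factor, was 2.07-fold higher (302 to 626), but its other probe sets had log2 ratios of 0.35 and 0.23. With the median over probe sets the count was 1. Runx2 was not analysed here. The part of these factors in the Mmp values was not tested.

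Of the genes for substrates of these enzymes in cartilage, 23 of 31 had a ratio below 1. The median log2 ratio was −0.27, beside 0.011 over all measured genes with a fold or bound. Among the 31 measured substrate genes, 5 were lower (16.1%) and 2 higher (6.45%) by 2-fold or more, and 24 lay within 2-fold. Of all measured genes, 4.34% were lower and 6.54% higher, so the share higher was near that of all genes. Acan, the proteoglycan core protein that Mmp3 and Mmp13 can cut, was 32.3-fold lower (5066 to 157). The link protein gene Hapln1 was 9.37-fold lower, and the matrilin genes Matn3 and Matn1 were 7.99-fold and 5.54-fold lower. Fmod, fibromodulin, was 2.12-fold lower and was named after its value was seen. Nid1, a basement membrane protein, was 6.76-fold higher (1195 to 8081). Col2a1, the collagen that Mmp13 acts on, read 9538 and 7366 and was 1.29-fold lower, and Fn1, fibronectin, was 1.07-fold lower.

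Mmp13 is also a marker of hypertrophic chondrocytes and osteoblasts, and the other markers of these cells went both ways. Col10a1, which encodes a collagen specific to hypertrophic cartilage, had a signal of 30.8 in control, close to the floor, and 181 with retinoic acid (5.88-fold higher). Panx3 was lower by at least 12.2-fold, and Pth1r had a log2 ratio of −1.36. The summed signal of the hypertrophic list was 636 in control and 365 with retinoic acid. For the osteoblast list, which shares Ibsp with it, the sums were 365 and 278. Sp7, the osteoblast transcription factor gene, had a log2 ratio of −1.59, and Alpl had −1.03. The other osteoblast markers on the array went the other way. Ibsp was 1.13-fold higher, and Dmp1 and Phex were at least 1.54-fold and 1.76-fold higher from below the floor. The part of these cell types in the Mmp13 value was not tested.
Of 8 markers of the chondrocytes themselves, 5 were at least 2-fold lower with retinoic acid, beside 4.34% of all measured genes. Every gene of this list except Sox9 is also among the substrate genes above, so the counts share genes. The summed signal of the chondrocyte list was 46249.7 in control and 22653 with retinoic acid. Of the 5 superficial zone markers, 1 was past 2-fold: Clu, clusterin, was 5.97-fold higher (1027 to 6138). Prg4, which encodes lubricin, was 1.67-fold lower, Thbs4 1.85-fold, Tnc 1.47-fold and Erg 1.37-fold lower, and the sum of the list, 6139 in control and 9322 with retinoic acid, follows Clu. Mmp2, Mmp3 and Mmp14 are also expressed by fibroblasts, whose 6 markers summed to 23291 and 24618, with Pdgfra past 2-fold higher (2333 to 6023) and Thy1 past 2-fold lower (507 to 201). The part of the cell makeup in the Mmp values was not tested.

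**Figure D5:**
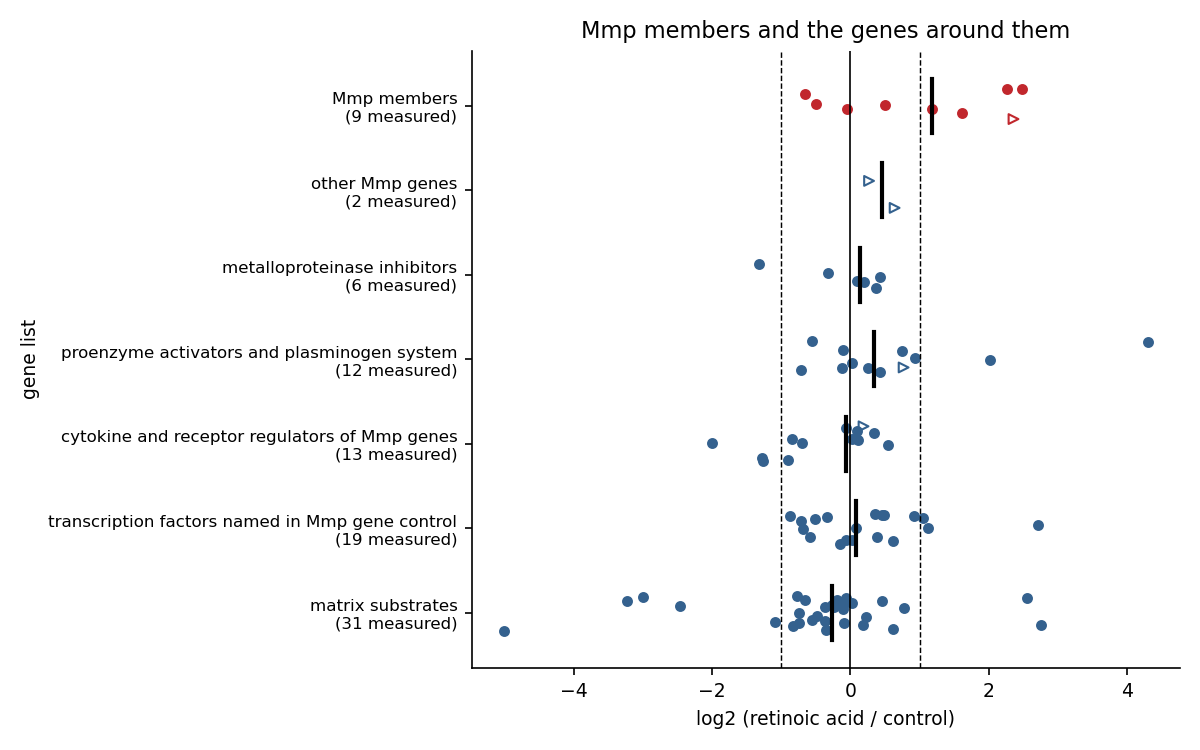
Log2 ratio of retinoic acid over control for each measured gene of the Mmp members (red) and 6 lists of related genes (blue), with the median of each list as a black bar, dashed lines at 2-fold and open triangles for bounds; vertical spread within a list is only for legibility. The median of the Mmp members is 1.18, and the medians of the other lists lie between −0.27 and 0.45.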

How the data were processed

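RNA (100 ng per culture, per the labels' protocols) from 1 control and 1 retinoic acid culture was read on 1 array each. The deposited values are intensities, linear MAS5 signals per probe set, per the submitters' processing notes; no source used here gives its version, scaling target or detection calls. They were used without further scaling. Of 45101 probe sets, 64 were controls, 34945 had 1 gene symbol in the platform annotation, 932 had several and 9160 none; only those with 1 were used. The Entrez identifiers of all 19 member probe sets gave the same symbols in RefSeq's table.

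Signals at or below an array's median over probe sets other than controls were set to that median. Where a gene had several probe sets, the one brightest on the log2 scale over both arrays stands for it. A bound on the wrong side of 1 gives no fold. Counts use 2-fold, and no test was run with 1 array per group. The named genes are all members, the genes past 2-fold of each list (at most the 6 largest) and 13 fixed genes; cell type markers were named after their values were seen. The members and lists were chosen with earlier results of these data known. Counting was tested on simulated data, with changes placed only in genes far above the floor on both arrays. Recovery of changes was not tested for genes as dim in control as Mmp3, Mmp9 and Mmp11. Promoter windows cover the 250 bases before each annotated start. Alternatives were other floors, an offset, 3 scalings (median, quantile, loess with span 0.3) and 2 choices of probe set. Python 3.11.15, numpy 2.4.6, pandas 2.3.3, statsmodels 0.14.6 and matplotlib 3.10.9 were used.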

Additional observations from a re-analysis of the deposited data

How the results depend on the processing

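The count of members at least 2-fold higher was 5 under 8 of the 9 alternatives and 4 where the floor was the 70th percentile of signal, which drops Mmp9. The count at least 2-fold lower was 0 under all 9. The median log2 ratio of the members, 1.18 as reported, was 0.84 with a floor at the 30th percentile, at the 70th percentile and with no floor, and 1.53 with the median over probe sets. The lower floor and no floor add Mmp10. The floor at the 70th percentile lowers the Mmp9 bound to 0.17 and drops Mmp19. The median over probe sets gives Mmp14 1.53. Under the other alternatives it stayed within the scatter between probe sets, an SD of 0.30. No called member changed sign. Mmp10 had a log2 ratio of −0.33 at the 30th percentile and with no floor, from signals below both medians. Of 161 values of the other lists, 16 moved by over 1.5 times (counts) or by more than that SD (medians). With no floor, 4 genes of the list of activators and related genes were past 2-fold higher. In the list of cytokines, receptors and related genes, 6 were past 2-fold lower, and 2 of the other Mmp genes were past 2-fold higher and 3 lower. The median of the cytokine list was −0.39 with the floor at the 30th percentile or only unique probe sets and −0.66 with no floor. That of the list of activators and related genes was 0.75 with only unique probe sets. No paired analysis was possible because each group has 1 array. Depth here means signal over background: Mmp9, Mmp12 and Mmp17 are limited to bounds.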
